A study of Mus musculus with 6 samples.

Results

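Cell cycle and proliferation genes were examined in the liver of mice that lacked the kinase Lkb1 (gene *Stk11*) in hepatocytes. The set holds 39 genes taken by symbol, with earlier results of these data known. It covers cyclins, cyclin-dependent kinases and their inhibitors, Cdc25 phosphatases, E2f and Rb factors, replication proteins, and proteins of mitosis. Of the 39 genes, 36 were measured by a probe set that the array annotation assigns to 1 gene symbol, among 19938 such genes in all. No probe set was assigned to *Ccnb1* or *Trp53*, and the only probe set for *Cdkn1a* is shared with another gene symbol, so these 3 genes enter no comparison. The RNA came from whole fasted liver of 6 mice, 1 array for each mouse. The mutant group was 3 Lkb1KOlivad mice of genotype *Lkb1* fl/fl;TTR-CreTam (mouse numbers B253, B304 and B305), and the control group was 3 *Lkb1* fl/fl littermates without Cre (B256, B267 and B302). All 6 mice are labelled female, both groups carried the floxed alleles and received tamoxifen as adults, and the Cre transgene was present in the mutant group only. The TTR (transthyretin) promoter drives this tamoxifen-dependent Cre in hepatocytes, so other liver cells keep *Lkb1*. Most of the study's animals were analysed 15 days after tamoxifen, and the day is not stated for these arrays.

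A cell enters the division cycle when D cyclins with Cdk4 or Cdk6, and then E cyclins with Cdk2, phosphorylate the retinoblastoma protein Rb and release E2f factors. E2f factors switch on the genes of DNA replication, and a later wave under B-Myb and Foxm1 switches on the genes of mitosis. Hepatocytes of adult liver are mostly quiescent, with the S phase and mitosis genes near silence, and re-enter the cycle after loss of liver tissue. Lkb1 is a tumour suppressor that activates AMPK and related kinases.

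*Stk11* had a log2 signal of 6.52, 6.42 and 6.48 in Lkb1KOlivad livers, against 8.24, 8.13 and 7.96 in control livers. Its difference was -1.64 (SE 0.12, limma adjusted p = 0.00705), and it was the only gene of 19938 past the adjusted threshold of 0.05 (0.00502% of genes). Array medians lay between 5.03 and 5.08. The 14 measured hepatocyte markers, such as albumin, averaged 11.78 to 12.0 in Lkb1KOlivad livers and 11.71 to 12.01 in control livers, and all 14 stood above the genes of other tissues described below. The mouse numbers fall into a two-hundreds series (mutant B253, controls B256 and B267) and a three-hundreds series (mutants B304 and B305, control B302), whose meaning is not stated. Deviations from the group mean, correlated across genes between mutant and control mice, ran with that series: r was 0.0695 and 0.156 within the two-hundreds, 0.116 and 0.123 within the three-hundreds, and -0.206 to -0.0286 between the series. The deviations of a group sum to 0 for each gene, so positive r with some mice brings negative r with others. These values are therefore not independent of each other.

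Few of the proliferation genes stood above the signal of genes that liver does not use. The arrays carry no detection call, so 46 measured genes of other tissues (such as neuron, retina, testis, muscle and Y-linked genes) served as a guide to the signal of an unused gene. Their signals spanned 2.46 to 6.35 on the log2 scale, with a median of 4.0 and a 95th percentile of 5.71. Of the 36 cell cycle genes, 8 (22.2%) lay above that percentile, namely *Ccnd1*, *Ccnd3*, *Cdk4*, *Cdk6*, *Cdkn2c*, *Rb1*, *Pcna* and *Tyms*, and the other 28 did not. Over all genes the share above it was 40.2% (8015 genes). Most of those 8 belong to the entry into the cycle (D cyclins, their kinases, an inhibitor and Rb). No measured gene of mitosis and neither A nor B cyclin was among them. The signal of a probe set also depends on its probes, so levels of different genes were not ranked.

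**Figure D1:**
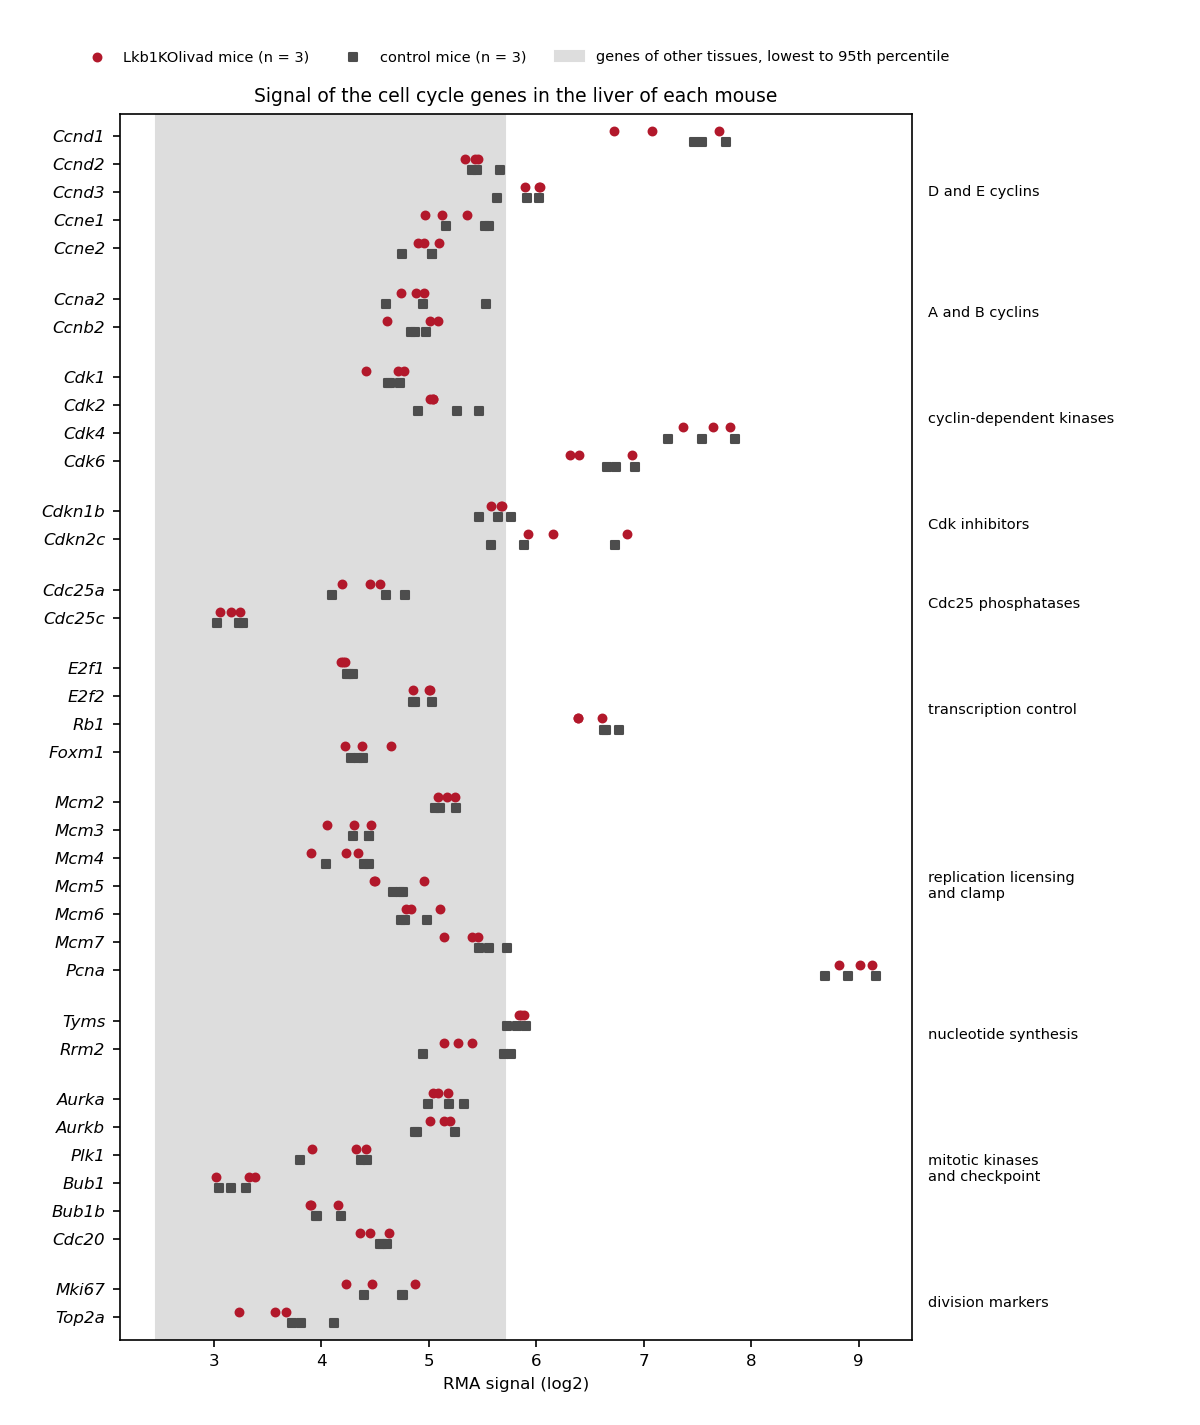
Log2 RMA signal of the 36 measured cell cycle genes (rows, grouped by role) in each Lkb1KOlivad mouse (red circles) and each control mouse (grey squares). The grey band runs from the lowest signal of genes of other tissues, 2.46, to their 95th percentile, 5.71, and 28 of the 36 genes have a mean inside it.

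No cell cycle gene differed between Lkb1KOlivad and control livers after adjustment over all genes (limma, 0 of 36, adjusted p = 0.9997 for each of them). At an unadjusted p under 0.05, none of the 36 was higher and 1 was lower, *Top2a* (2.78%). Over all genes 1.52% were higher and 1.51% lower at that threshold. With the series of mouse numbers as a block, *Top2a* lost this call and none of the 36 was lower, against 2.07% of all genes. The 3 mutant mice lay below the 3 control mice for 4 genes, *Top2a*, *Mcm7*, *Rb1* and *E2f1* (11.1%, against 3.7% of all genes), and above them for none (against 3.46% of all genes). The log2 difference was below 0 for 21 of the 36 genes (58.3%, against 48.4% of all genes), and its median was -0.054, against 0.0049 over all genes. The 95% interval reached a median of 0.31 to either side of a difference, so that it spanned 0 for 35 of the 36 genes. No interval extended to a doubling or to a halving of the signal: the highest limit was 0.96 (1.95-fold, *Cdkn2c*) and the lowest -0.94 (0.52-fold, *Ccnd1*). For a gene near the signal of unused genes, an array signal understates the ratio of the transcripts, so these limits hold for the signals. In whole liver, fewer cells that divide and less RNA in each of them cannot be told apart.

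**Figure D2:**
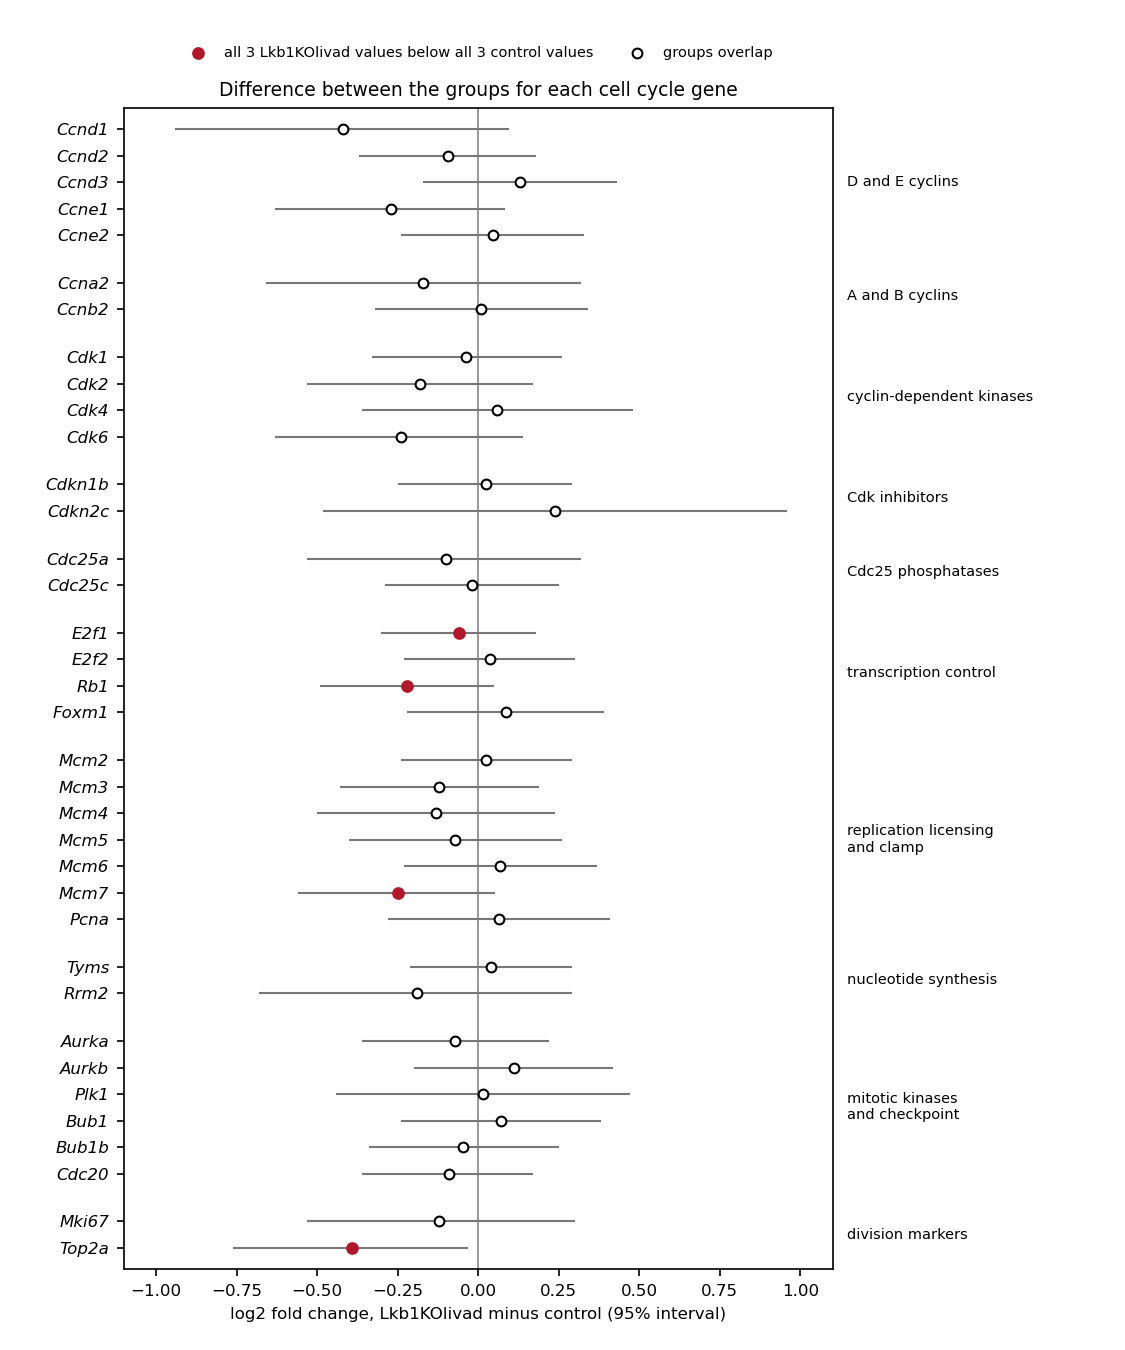
Log2 difference in signal, Lkb1KOlivad minus control, for each of the 36 cell cycle genes, with its 95% interval from limma (n = 3 mice in each group). All intervals lie between -0.94 and 0.96, and that of *Top2a* is the one that leaves out 0.

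The D and E cyclins take a cell from quiescence to the start of S phase. Cyclin D1, the cyclin that growth signals induce in liver, had a *Ccnd1* signal of 7.70, 7.08 and 6.72 in Lkb1KOlivad mice B253, B304 and B305, against 7.76, 7.54 and 7.47 in control mice B256, B267 and B302. Mutant mice B304 and B305 lay below every control mouse, whereas mutant mouse B253 stood among the controls. The means were 7.17 ± 0.50 in Lkb1KOlivad livers and 7.59 ± 0.15 in control livers (SD, n = 3 each). The difference was -0.42 (95% interval -0.94 to 0.096, limma unadjusted p = 0.0976), and an exact permutation test, two-sided, had p = 0.3. The difference depended on the mice compared: it was -0.69 without B253 and -0.20 without B305. Within the two-hundreds series it was 0.049 and within the three-hundreds -0.57. A block for the series gave -0.26. Of the other members of the group, the differences were -0.27 for *Ccne1* and -0.093 for *Ccnd2*, and 0.046 for *Ccne2* and 0.13 for *Ccnd3*, each with overlapping groups. The median over the 5 genes was -0.093.

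Among the kinases that these cyclins activate, *Cdk4* and *Cdk6* act with D cyclins, *Cdk2* with E and A cyclins, and *Cdk1* with A and B cyclins to start mitosis. The groups overlapped for all 4 kinases. The differences were 0.060 for *Cdk4*, -0.24 for *Cdk6* and -0.18 for *Cdk2*. *Cdk1* had signals of 4.41, 4.77 and 4.71 in Lkb1KOlivad mice and 4.62, 4.73 and 4.64 in control mice, all under 5.71. Mutant mouse B253 was the lowest of the 6 mice and B304 the highest. The *Cdk1* difference was -0.039 (95% interval -0.33 to 0.26, exact permutation p = 0.9). Its partner in S phase and G2, cyclin A2, had *Ccna2* signals of 4.95, 4.88 and 4.74 in Lkb1KOlivad mice and 4.60, 5.53 and 4.94 in control mice. Control mice held both the lowest and the highest value, and the difference was -0.17 (95% interval -0.66 to 0.32, exact permutation p = 0.8). Cyclin B2 (*Ccnb2*), which acts in mitosis, differed by 0.0088.

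Cdk inhibitors hold the kinases back. *Cdkn1b*, which encodes p27, the inhibitor of E cyclin complexes, had signals of 5.58, 5.68 and 5.67 in Lkb1KOlivad mice and 5.64, 5.76 and 5.47 in control mice. The groups overlapped, with a difference of 0.023 (95% interval -0.25 to 0.29, exact permutation p = 0.8). *Cdkn2c*, which encodes the Cdk4 and Cdk6 inhibitor p18, varied most between mice among the 36 genes, over a range of 1.27 on the log2 scale (2.40-fold). Its signals were 6.15, 5.92 and 6.84 in Lkb1KOlivad mice and 5.88, 6.73 and 5.58 in control mice, so that 1 mouse of each group stood well above the rest. The Cdc25 phosphatases, which remove the inhibitory phosphates of Cdks, differed by -0.10 (*Cdc25a*) and -0.020 (*Cdc25c*).

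The retinoblastoma protein, the brake on E2f factors, was measured through *Rb1*. Its signals were 6.39, 6.61 and 6.39 in Lkb1KOlivad mice, against 6.65, 6.77 and 6.63 in control mice. All 3 mutant mice lay below all 3 controls, with mutant mouse B304 close to the lowest control, B302. The means were 6.46 ± 0.13 in Lkb1KOlivad livers and 6.68 ± 0.073 in control livers (SD, n = 3 each). The difference was -0.22 (0.859-fold, 95% interval -0.49 to 0.049, limma unadjusted p = 0.0974). In the exact permutation test p was 0.1, the smallest that 3 against 3 mice allow. *Rb1* also stands in a gene list that the study drew from arrays of *Lkb1* mutant livers, and whether those were these arrays is not settled, so its direction here is not taken as independent evidence. *E2f1*, an activating E2f, had signals of 4.20, 4.22 and 4.18 in Lkb1KOlivad mice and 4.26, 4.24 and 4.29 in control mice. The groups did not overlap but the difference was -0.059 (95% interval -0.30 to 0.18, limma unadjusted p = 0.581), at a signal within the range of genes of other tissues. *E2f2* and *Foxm1*, the activator of mitosis genes, differed by 0.037 and 0.086 with overlapping groups.

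**Figure D3:**
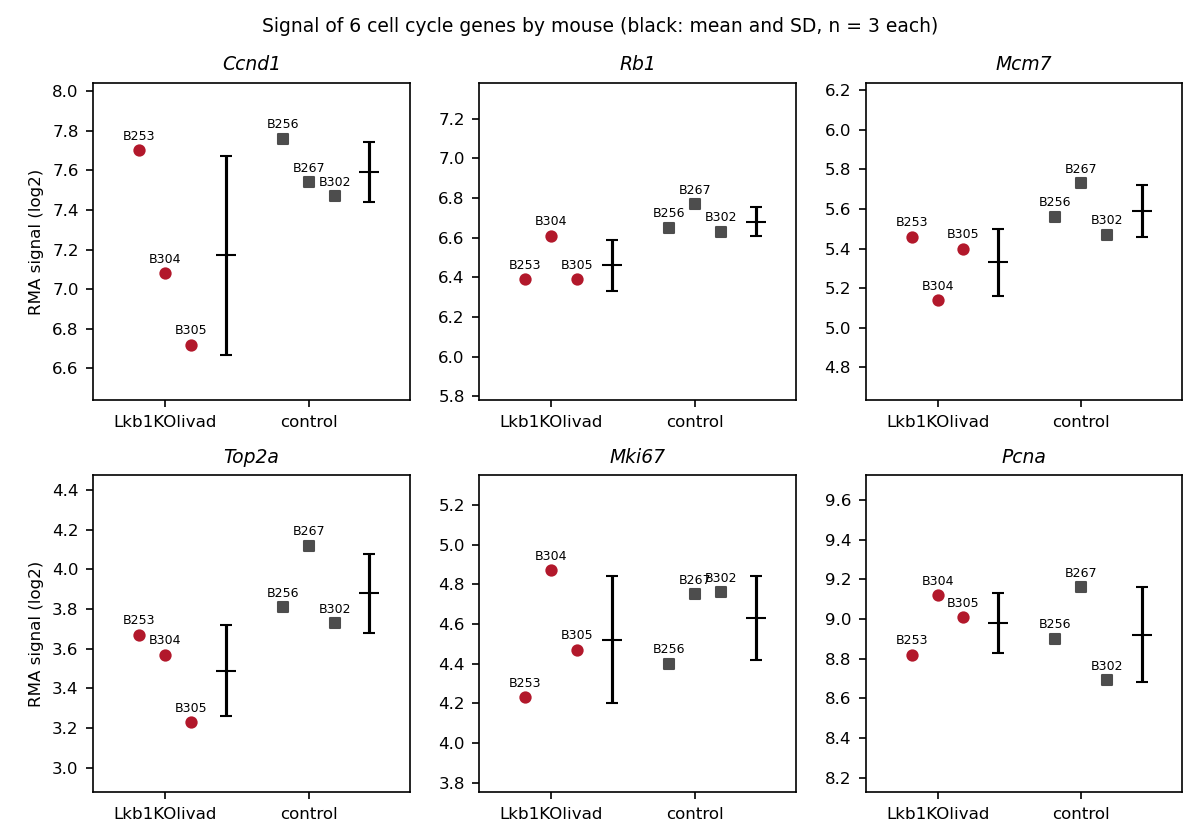
Log2 signal of 6 cell cycle genes in each mouse, Lkb1KOlivad (red) left of control (grey), with mouse numbers and, in black, the mean and SD of each group (n = 3 mice). All panels span the same width on the log2 axis. The 3 mutant mice lie below the 3 control mice for *Rb1*, *Mcm7* and *Top2a*, 2 of 3 do for *Ccnd1*, and the groups overlap for *Mki67* and *Pcna*.

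In G1, the 6 Mcm proteins load onto origins as the replicative helicase, and Pcna is the clamp that holds DNA polymerase in S phase. *Mcm7* had signals of 5.46, 5.14 and 5.40 in Lkb1KOlivad mice, against 5.56, 5.73 and 5.47 in control mice. The mutant mice all lay below the controls, B253 by a small margin under control mouse B302. The difference was -0.25 (0.839-fold, 95% interval -0.56 to 0.051, limma unadjusted p = 0.0919, exact permutation p = 0.1). *Mcm2*, a subunit of the same helicase, had signals of 5.08, 5.24 and 5.17 in Lkb1KOlivad mice and 5.10, 5.25 and 5.06 in control mice. Its groups overlapped almost fully, with a difference of 0.025 (95% interval -0.24 to 0.29, exact permutation p = 0.8). The other 4 subunits also overlapped, with differences of -0.12 for *Mcm3*, -0.13 for *Mcm4*, -0.071 for *Mcm5* and 0.067 for *Mcm6*. *Pcna* had signals of 8.82, 9.12 and 9.01 in Lkb1KOlivad mice and 8.90, 9.16 and 8.69 in control mice. It was well above the genes of other tissues, and its difference was 0.065 (95% interval -0.28 to 0.41, exact permutation p = 0.8). The mouse genome holds *Pcna* pseudogenes, and the signal of near-identical copies was not separated. The enzymes of nucleotide synthesis differed by 0.041 (*Tyms*, thymidylate synthase) and -0.19 (*Rrm2*, the small subunit of ribonucleotide reductase), with overlapping groups.

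*Mki67*, which encodes the Ki-67 protein used to stain dividing cells, had signals of 4.23, 4.87 and 4.47 in Lkb1KOlivad mice and 4.40, 4.75 and 4.76 in control mice. Mutant mice held both the lowest and the highest value, and the difference was -0.12 (95% interval -0.53 to 0.30, exact permutation p = 0.7). *Top2a*, the topoisomerase that untangles chromosomes before mitosis, had signals of 3.67, 3.57 and 3.23 in Lkb1KOlivad mice, against 3.81, 4.12 and 3.73 in control mice. The mutant mice lay below the controls, and all 6 values were near or under the median of genes of other tissues, 4.0. The means were 3.49 ± 0.23 in Lkb1KOlivad livers and 3.88 ± 0.20 in control livers (SD, n = 3 each). The difference was -0.39 (0.761-fold, 95% interval -0.76 to -0.032, limma unadjusted p = 0.0362 and adjusted p = 0.9997, exact permutation p = 0.1). A second, dimmer *Top2a* probe set lay between 2.40 and 2.66 in the 6 mice and differed by 0.071.

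The mitotic kinases and the spindle checkpoint gave no separation of the groups. *Aurka* and *Plk1*, kinases of spindle assembly, differed by -0.072 and 0.015, and *Aurkb*, of the chromosomal passenger complex, by 0.11. The checkpoint genes *Bub1* and *Bub1b* differed by 0.071 and -0.048, and *Cdc20*, the activator of the anaphase-promoting complex that they restrain, by -0.091. All 6 genes were under 5.71 on average, and the median difference was -0.017. *Bub1*, *Cdc25c* and *Top2a* were the 3 genes whose mean did not exceed the median of genes of other tissues.

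Promoters of the division genes carry shared short sequences, and 3 are shown: *Top2a*, the gene at an unadjusted p under 0.05, *Mki67* as the usual marker of division and *Cdk1* as the mitotic kinase. E2f factors are known to bind letters such as TTCGCGC or TTGGCGC, the CHR (TTTGAA or TTCGAA) recruits the repressive DREAM complex and then B-Myb and Foxm1, and CCAAT binds NF-Y. Each sequence is the 120 bases before the outermost annotated end of the gene in RefSeq (build GRCm38.p6), read 5′ to 3′ on the gene's strand, with every match to the letters searched in capitals. The windows are chr11:99024200-99024319 for *Top2a*, chr7:135716451-135716570 for *Mki67* and chr10:69352913-69353032 for *Cdk1*, all on the minus strand.
Top2a: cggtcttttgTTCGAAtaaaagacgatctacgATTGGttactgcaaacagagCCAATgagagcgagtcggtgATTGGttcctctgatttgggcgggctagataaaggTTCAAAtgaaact
Mki67: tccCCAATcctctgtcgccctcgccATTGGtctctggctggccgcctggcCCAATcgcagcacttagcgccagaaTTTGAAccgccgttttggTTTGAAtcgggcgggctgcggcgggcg
Cdk1: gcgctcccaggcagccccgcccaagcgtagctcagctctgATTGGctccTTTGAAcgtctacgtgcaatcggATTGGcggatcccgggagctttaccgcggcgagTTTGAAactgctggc
In these windows *Top2a* has 5 matches, of which TTCGAA and TTCAAA are CHR letters and the others CCAAT or its reverse ATTGG. *Mki67* also has 5, namely TTTGAA at 2 places and CCAAT or ATTGG at 3, and *Cdk1* has 4, namely TTTGAA and ATTGG at 2 places each. No match to the E2f letters lies within the 120 bases shown. In the 250 bases before the listed start, *Mki67* and *Cdk1* have E2f letters and *Top2a* has none. Of those 250 bases, 71 lie inside the annotated gene for *Mki67*, 10 for *Top2a* and 0 for *Cdk1*. *Rb1* and *Ccnd1* are not in the promoter table. The 250 bases before the listed starts of *Mcm7* and *E2f1* lie for 228 and 250 bases inside the annotated gene and are not shown. All 3 kinds of letters were found in that stretch of *Mcm7* and none in that of *E2f1*.

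Over the 250 bases before the first listed start, 27 of the 36 genes had a promoter in the table used, among 15614 genes. The E2f letters searched on both strands were TTCCCGC and, as a variant of it, TTGGCGC. The search also took the form TTCGCGC and, as the last variant, TTGCCGC. Any of these occurred in 9 of the 27 (33.3%, against 10.8% of all promoters). The CHR letters (TTTGAA or TTCGAA, both strands) occurred in 8 (29.6%, against 15.1%), and CCAAT, on either strand, in 20 (74.1%, against 35.5%). The last letters of ATTGG can be the first of TTGGCGC, so both can match at one place, and no capitals above overlap in this way. The median log2 difference between Lkb1KOlivad and control livers was -0.10 for the 9 genes with E2f letters, 7 of them below 0, and 0.012 for the 18 without, 8 of them below 0. It was -0.070 for the 8 genes with CHR letters, 6 of them below 0, and 0.015 for the 19 without, 9 of them below 0. For CCAAT it was -0.059 for the 20 genes with it, 12 of them below 0. The 7 genes without CCAAT had 0.041, 3 of them below 0. *Mcm7* counts as a match for all 3 kinds, though 228 of its 250 bases lie inside the annotated gene. How much of the stretch lies inside the gene was checked only for *Mcm7*, *E2f1*, *Top2a*, *Mki67* and *Cdk1*. These medians describe the lists without a test. A match is a run of letters and was not shown to be a bound site.

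Mouse by mouse, the level of the 36 genes did not separate the groups. Relative to the mean of the controls, the mean over the 36 genes was -0.089, -0.045 and -0.056 in Lkb1KOlivad mice B253, B304 and B305. It was 0.010, 0.052 and -0.062 in control mice B256, B267 and B302, so control mouse B302 lay below mutant mice B304 and B305. Mutant mice B253, B304 and B305 were the lowest of the 6 mice for 8, 4 and 7 genes and the highest for 2, 8 and 2. Control mice B256, B267 and B302 were the lowest for 4, 5 and 8 genes and the highest for 8, 10 and 6. Within the two-hundreds and the three-hundreds, the difference was -0.31 and -0.14 for *Rb1*, -0.18 and -0.20 for *Mcm7*, -0.29 and -0.33 for *Top2a*, and -0.049 and -0.085 for *E2f1*. Every mutant mouse lay below every control for these genes, so the sign in both series was fixed and is no replication.

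**Figure D4:**
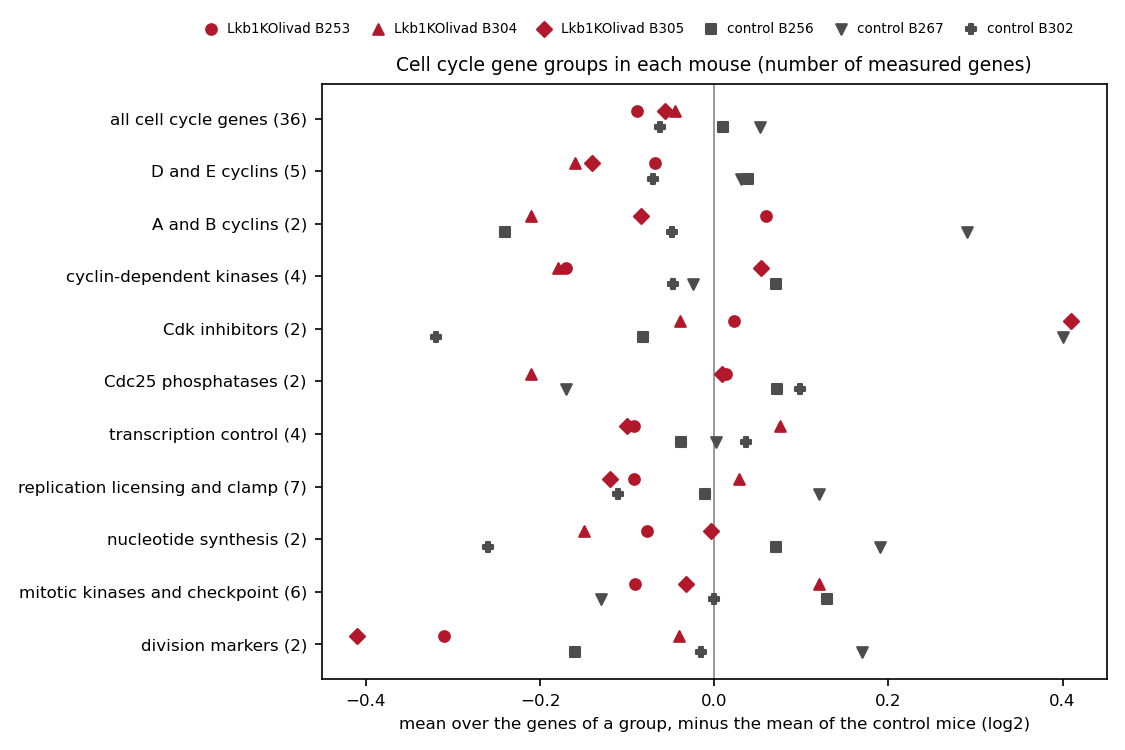
Mean over the measured genes of each role (number in brackets), as log2 signal relative to the control mean, for each Lkb1KOlivad mouse (red) and each control mouse (grey), with 1 marker shape for each mouse. Over all 36 genes the mutant mice lie between -0.089 and -0.045 and the control mice between -0.062 and 0.052, so the groups overlap.

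Further genes of the cell cycle were read as lists. Of 139 measured genes in 8 other lists, none passed the adjusted threshold, 2 were higher and 3 lower at an unadjusted p under 0.05 (against 1.52% and 1.51% of all genes, so near that background), and the median difference was 0.030. The list medians were 0.034 for the pocket proteins, E2fs and DREAM complex (15 genes), -0.030 for origin recognition and firing (17) and -0.017 for the replication fork and nucleotide supply (21). They were 0.042 for kinetochore and spindle (23), 0.037 for the anaphase-promoting complex (16) and -0.0079 for further Cdk regulators (16). The p53 target genes (17 measured) had a median of 0.039, with none at an unadjusted p under 0.05, and the immediate early and growth genes (15) had a median of 0.047.

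The 5 genes at an unadjusted p under 0.05 in these lists differed by more than any of the 36 genes. They were picked by p among 139 genes, whereas the 36 were not, so the sizes are not compared like for like. *E2f8*, a repressing E2f factor that acts in the polyploidy of hepatocytes, had signals of 6.03, 5.73 and 6.35 in Lkb1KOlivad mice, against 6.34, 7.60 and 6.91 in control mice. Mutant mouse B305 overlapped control mouse B256, and the difference was -0.91 (SE 0.30, limma unadjusted p = 0.0135, adjusted p = 0.9997). Its closest relative *E2f7* differed by 0.15 (limma unadjusted p = 0.36). *Cks2*, a small subunit of Cdk complexes, had signals of 7.32, 7.18 and 7.49 in Lkb1KOlivad mice, against 6.46, 6.87 and 6.96 in control mice. The mutant mice all lay above the controls, with a difference of 0.57 (SE 0.16, limma unadjusted p = 0.00659, adjusted p = 0.9997). *Myc*, a growth factor-induced transcription factor, had signals of 7.43, 6.84 and 6.87 in Lkb1KOlivad mice, against 8.62, 8.18 and 8.36 in control mice. Its groups were the widest apart of the 5 (difference -1.34, SE 0.19), with a limma adjusted p = 0.352, and it stands in the same list of the study as *Rb1*. *Klf6*, an immediate early zinc finger factor, differed by -0.45 (SE 0.14) without overlap, and *Id2*, an inhibitor of helix-loop-helix factors, by 0.55 (SE 0.22) with overlap.

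Markers of cells other than hepatocytes, whose *Lkb1* was not targeted and some of which divide in liver, were set beside these values. Of 11 measured T and NK cell markers, 5 lay lower in every mutant mouse than in any control (*Cd3d*, *Cd3e*, *Cd8b1*, *Nkg7* and *Gzmb*), beside 3.7% of all genes, and none of the 11 was above 5.71. The difference was below 0 for 7 of the 11 and above 0 for 4, with a median of -0.093. Their mean was 4.12 to 4.31 in Lkb1KOlivad livers and 4.27 to 4.43 in control livers. Of 12 stellate cell markers, 3 lay lower in every mutant mouse than in any control (*Lrat*, *Col1a2* and *Ngfr*), again beside 3.7% of all genes. The difference was below 0 for 11 of the 12, with a median of -0.25, and 3 were lower at an unadjusted p under 0.05 (*Lrat*, *Rgs5* and *Ngfr*), beside 1.51% of all genes. The list mean was 5.72 to 5.88 in Lkb1KOlivad livers and 5.97 to 6.17 in control livers. The means of the 12 sinusoidal endothelial markers were 6.52 to 6.66 in Lkb1KOlivad livers and 6.62 to 6.95 in control livers, and those of the 12 Kupffer cell and macrophage markers 6.97 to 7.28 in Lkb1KOlivad livers and 6.93 to 7.56 in control livers. In both of these lists the difference was below 0 for 10 of the 12 markers, with medians of -0.19 and -0.16. The endothelial marker *Cdh5* lay lower in every mutant mouse (difference -0.25, limma unadjusted p = 0.0568). The 6 erythroid markers averaged 4.83 to 4.89 in Lkb1KOlivad livers and 4.91 to 4.95 in control livers, and the difference was below 0 for 5 of the 6 (median -0.053). The ranges of the T and NK, endothelial and macrophage lists overlapped between the groups, and those of the stellate and erythroid lists did not. The top of the endothelial control range was mouse B256 (6.95), against 6.62 in both B267 and B302. The ranges also overlapped for the 7 B and plasma cell markers (4.10 to 4.30 in Lkb1KOlivad and 4.05 to 4.40 in control livers), the 10 neutrophil markers (5.08 to 5.45 in Lkb1KOlivad and 4.88 to 5.45 in control livers) and the 6 cholangiocyte markers (4.35 to 4.51 in Lkb1KOlivad and 4.39 to 4.44 in control livers). The B cell marker *Cd79a* (difference 0.42, limma unadjusted p = 0.027) and the neutrophil marker *Csf3r* (0.15) lay higher in every mutant mouse. The cholangiocyte marker *Epcam* (-0.21) lay lower in every mutant mouse. The difference was above 0 for 8 of the 10 neutrophil markers (median 0.12). It was above 0 for 2 of the 7 B and plasma cell markers (median -0.019) and 3 of the 6 cholangiocyte markers (median 0.017). Of the 14 hepatocyte markers, *G6pc* lay higher in every mutant mouse (difference 0.56, limma unadjusted p = 0.0197). The difference was above 0 for 9 of these 14 (median 0.022). Over all genes, 3.46% lay higher without overlap and 1.52% were higher at an unadjusted p under 0.05. No marker passed the adjusted threshold. The part of these cells in the values of *Top2a*, *Mcm7*, *Rb1* and *E2f1* was not tested.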

How the data were processed

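Liver RNA of 3 Lkb1KOlivad and 3 control mice was measured on 1 array each. The deposited values are log2 RMA signals of 35556 probe sets, which the authors background-corrected, normalized between arrays and summarized before deposit, and which were used as deposited. The labels name RMA and Partek, and the methods Expression Console and BRB-ArrayTools. Their versions were not given in the sources used here. Probe set names belong to the array generation before the one in the methods. Probe sets with 1 gene symbol (21789) were kept, 1621 with several symbols and 12146 with none were left out, symbols were updated by gene identifier through RefSeq GRCm38.p6, and the brightest probe set stood for a gene. Groups were compared with limma 3.58.1 in R 4.3.3 (lmFit and eBayes, two-sided, no covariate), checked on simulated data, with Benjamini-Hochberg adjustment over 19938 genes and a threshold of 0.05. Exact permutation tests of 3 against 3 mice were two-sided. Replicates are different mice by number, and their number limits the precision.

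The cell cycle genes and all lists were chosen with earlier results of these data known. Values by mouse are printed for genes whose groups do not overlap or with an unadjusted p under 0.05, and for the best known gene of each role. Values of *E2f7*, *Cdkn2c* and the members of overlapping roles were added after they had been seen. Alternatives were quantile normalization, a median of 0 for each array, no dim genes, averaged probe sets, array weights, robust estimation with a trend on intensity, the methods' t-test, a block for the series of mouse numbers, and omission of each mouse. A block for B253 and B256, and leaving both out, were chosen after seeing the data. Raw array images were not used here.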

Additional observations from a re-analysis of the deposited data

How the results depend on the processing

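No cell cycle gene passed the adjusted threshold under any of the alternatives, and none was higher at an unadjusted p under 0.05. The count of genes lower at an unadjusted p under 0.05, 1 as reported (*Top2a*), was 0 without dim genes, with the mean of probe sets and with a block for the series of mouse numbers. The filter on dim genes left 8 of the 36 and took out *Top2a* itself, so its count of 0 is not a lost call. Of all genes in each setting, 1.3%, 1.49% and 2.07% were lower. It was 2 (*Ccnd1* and *Top2a*) with B253 and B256 as a block and without both of them, both chosen after seeing the data. Of all genes, 1.72% and 1.73% were lower in these settings. The methods' t-test gave 1, *E2f1* in place of *Top2a*, against 1.72% of all genes. Leaving out 1 mouse gave 0 to 3: *Ccnd1* and *Top2a* without B253, none without B304, *Cdk6* without B305, *Top2a* without B256, *Cdk2* without B267, and *Ccne1*, *Rrm2* and *Top2a* without B302. With a mouse left out, 0.948% to 2.23% of all genes were lower. The count of genes with the mutant mice below all controls (4) was 1 under quantile normalization (4.74% of all genes). Without dim genes it was 1 of the 8 genes left (3.38% of all genes left). It was 4 to 7 when a mouse was left out, where 7.3% to 9.07% of all genes did so. The count above (0) was 3 without both B253 and B256, where 16.3% of all genes did so. It was 0 to 3 when a mouse was left out, where 5.71% to 9.51% of all genes did so. The median difference, -0.054, was 0.051 without dim genes, which left 8 of the 36 genes, and -0.077 to -0.017 when a mouse was left out. Beyond that filter, the causes were not tested. Single genes with a difference near 0 changed sign: *Cdk1* was 0.048 without both B253 and B256, and *Cdkn1b* was -0.10 with the mean of probe sets and -0.0033 with array weights. Leaving out a mouse gave ranges of -0.38 to 0.086 for *Ccna2*, -0.11 to 0.071 for *Cdk1*, -0.054 to 0.091 for *Cdkn1b*, -0.015 to 0.081 for *Mcm2*, -0.29 to 0.031 for *Mki67* and -0.047 to 0.19 for *Pcna*. *Ccnd1* (-0.69 to -0.20), *Rb1* (-0.29 to -0.18), *Mcm7* (-0.32 to -0.15), *Top2a* (-0.49 to -0.26) and *E2f1* (-0.071 to -0.046) stayed below 0 under every mouse left out. For *Rb1*, *Mcm7*, *Top2a* and *E2f1* that sign was fixed, since every mutant mouse lay below every control. It is therefore no test of these genes.

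With 3 mice in each group, the unadjusted 95% interval reached 0.31 to either side for a typical cell cycle gene, and a difference had to be larger still to pass the adjusted threshold. In addition, 28 of the 36 genes had a signal in the range of genes of other tissues.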

Other observations

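The probe set that the annotation gives to both *Cdkn1a*, which encodes the Cdk inhibitor p21, and *4930567H12Rik* varied widely between mice. Its log2 signal was 8.21, 7.06 and 6.86 in Lkb1KOlivad mice B253, B304 and B305, against 8.91, 5.86 and 7.24 in control mice B256, B267 and B302. The range over the 6 mice was 3.05 (8.28-fold), and the highest values in each group were those of B253 and B256, both of the two-hundreds series of mouse numbers. Control mouse B267, of the same series, had the lowest value of the 6. The group means differed by 0.036, and the signal cannot be assigned to either gene.

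A second, on average dimmer probe set of *Cdkn1b* had log2 signals of 4.49, 4.50 and 6.49 in the same Lkb1KOlivad mice, against 4.68, 5.12 and 6.37 in the control mice. B305 and B302, 1 mouse of each group, stood apart from the other mice there, whereas the brighter *Cdkn1b* probe set lay between 5.47 and 5.76 in all 6. Both probe sets of *Pcna* agreed to within 0.041 in every mouse.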
